A study of Mus musculus with 4 samples.

Results

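The genes described here are the 76 that encode proteins of the cytosolic ribosome, out of 27998 gene symbols counted in single mouse leukaemia cells. They were taken by symbol, as Rpl or Rps followed by a number with or without a closing a or x. Rpsa, Rplp0, Rplp1 and Rplp2 were added. The symbol rule uses no measured value, although it was set with earlier results of these data known. The 76 genes comprise 46 of the large subunit and 30 of the small subunit. The cells had been made leukaemic with the fusion oncogene MLL-AF9 and were sorted from bone marrow by their GFP. The study held 4 samples of 1 library each, titled Hif-1a KO with chemotherapy, Hif-1a KO with PBS, Hif-1a wt with chemotherapy and Hif-1a wt with PBS.

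All 4 samples shared the same origin, which was c-Kit+ marrow of Hif-1alpha Lox/Lox; CreERT2 mice given MLL-AF9 and passed through transplanted recipients (strain C57BL6, 11 weeks old). Tamoxifen at 1 mg, which switches on the Cre, or its vehicle was given for 5 days from day 10 after transplantation. Cytarabine at 100 mg/kg for 5 days and doxorubicin at 3 mg/kg for 3 days, or PBS, followed, and marrow was taken 3 days after the end. Every barcode carries a suffix from 1 to 4, and the sources used here do not tie a suffix to a sample. Suffixes were therefore described side by side without a genotype or treatment, and no value below compares genotypes or treatments. With 1 library per suffix there is no replicate, no test and no p-value, and every interval covers counting error only.

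A ribosome holds 1 copy of nearly every ribosomal protein (the acidic stalk proteins Rplp1 and Rplp2 are present more than once), so that cells make these proteins in near-equal numbers. The mRNAs are among the most abundant in growing cells. Many start with a run of pyrimidines, the 5′ terminal oligopyrimidine or TOP tract, through which mTOR signalling sets their translation together. In the marrow, lowered dose of single members such as Rps19 in humans causes Diamond-Blackfan anaemia, a failure of red cell production.

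In kept cells the suffixes held 1174, 1251, 1625 and 1406 cells, with 7644436 to 9932649 UMIs (unique molecular identifiers, each standing for 1 captured transcript end). T and NK cell markers stood at 0 to 0.234 counts per 1000000 UMIs (CPM) in sum and erythroid markers at 2.52 to 4.33 CPM. B cell markers were at 67.2 to 89.0 CPM and stromal and endothelial markers at 80.1 to 97.2 CPM. Markers of granulocyte precursors reached 9329 to 20894 CPM, so the cells carried markers of the myeloid lineage. Between suffixes, 17 barcode sequences occurred more than once.

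All 76 members were detected, none was listed at 0, and all but Rpl27 and Rpl15 had mean levels of 1131 CPM or more. Among the 100 most abundant genes of the table, 65 were members. Rpl32 had the highest mean level over the suffixes at 8247 CPM, and Rps23 stood at 6935, Rpl13a at 6859 and Rps19 at 6713 CPM. The lowest were Rpl27 at 646 CPM, Rpl15 at 790.3, Rps21 at 1131, Rps28 at 1314 and Rpl38 at 1318 CPM. The median member stood at 3768 CPM, and the highest was 12.77-fold above the lowest although the proteins are needed in near-equal numbers. Each molecule is counted once at its 3′ end, so these levels are not divided by length.

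Levels were also set beside the number of copies of each gene. Ribosomal protein genes have many near-identical processed pseudogenes, and reads that match several of them may not be counted for the gene. In the mouse annotation, 35 members had at least 1 other transcript that matched their last 300 bases at 98% identity, and 41 had none. The 11 members with 5 or more copies, Rpl27 and Rpl15 among them, had a median of 2743 CPM and those without a copy a median of 4243 CPM. The ranges overlapped widely, at 645.7 to 6379 CPM with 5 or more copies and 1131 to 8247 CPM without one. At 100% identity the difference was small, with medians of 3681 CPM for the 15 members with a copy and 3823 CPM for the rest. The Spearman correlation between number of copies and level was −0.187 across the 76 members. Levels of members with many copies, such as Rps2 with 24 and Rps12 with 14, are uncertain for this reason.

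Members took 28.16% of all UMIs in suffix 1 (95% interval 28.13 to 28.19) and 29.33% in suffix 2 (between 29.30 and 29.36). They took 32.15% in suffix 3, with bounds of 32.12 and 32.18, and 30.97% in suffix 4, with bounds of 30.94 and 31.00. Both subunits showed the same order. Small-subunit genes took 12.4%, 12.96%, 14.2% and 13.8% in suffixes 1 to 4, and large-subunit genes 15.7%, 16.4%, 17.99% and 17.2%. Single cells differed more than suffixes did, with 5th to 95th percentiles of 22.2% to 33.3% in suffix 1 and 18.4% to 40.1% in suffix 3. In the 208 barcodes left out for more than 10% mitochondrial UMIs, the median share was 9.86% to 12.4%.

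Depth moved with the share in suffixes 3 and 4. Over 4 equal bins of cells, from the fewest UMIs to the most, the median share was 27.7%, 31.2%, 33.6% and 34.7% in suffix 3, and 27.0%, 29.95%, 32.6% and 32.96% in suffix 4. In suffixes 1 and 2 it stayed between 27.7% and 29.8%. With all cells thinned to 2000 UMIs, which left out 29, 20, 45 and 20 shallower cells in suffixes 1 to 4, the shares were 28.1%, 29.1%, 31.1% and 30.1%.

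Leiden clustering, run without the members, gave 12 clusters, of which 5 could be named from markers. The share was higher in suffixes 3 and 4 than in suffixes 1 and 2 inside the clusters as well. In cluster 1, the largest with 677 cells and no name, it was 35.9% in suffix 3 and 34.9% in suffix 4, against 29.2% in suffix 1 and 30.1% in suffix 2. In cluster 4, led by Hist1h2ap, Ube2c, Nusap1 and Top2a, genes of dividing cells, it was 31.2% in suffix 3 and 29.6% in suffix 4, against 26.7% in suffix 1 and 27.2% in suffix 2. Where suffixes 3 and 1 could be compared, in 6 clusters, suffix 3 was higher in each, by log2 ratios of 0.22 to 0.30.

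**Figure D1:**
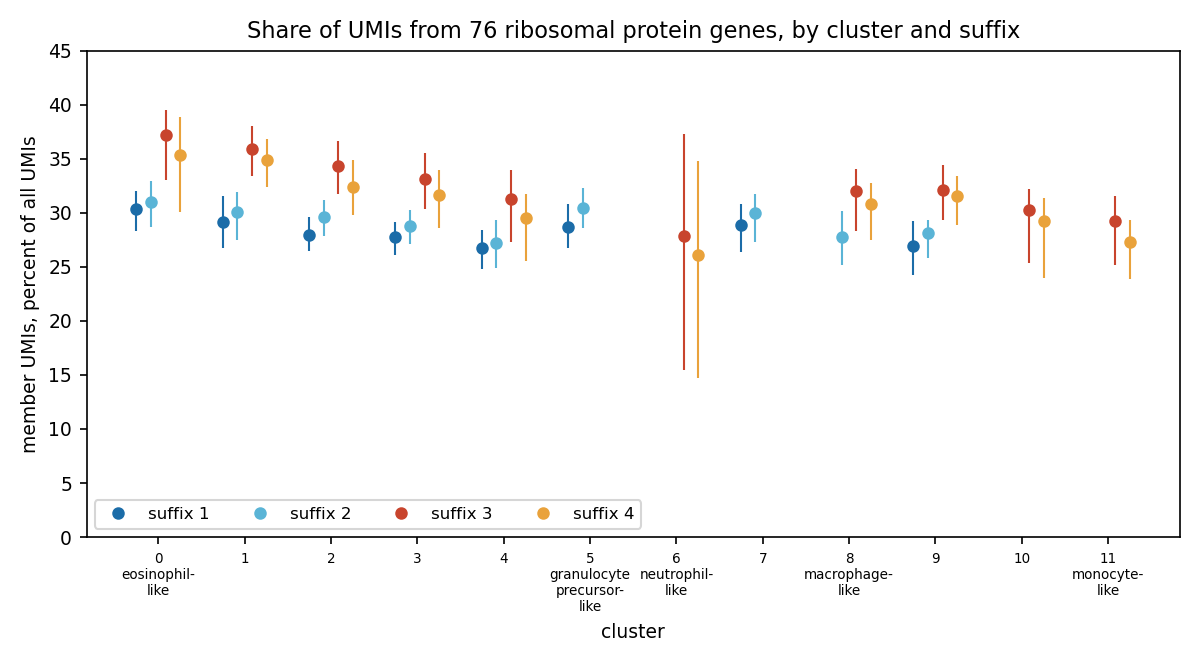
Share of UMIs from the 76 ribosomal protein genes (y axis, percent of all UMIs) in each cluster (x axis) and suffix with 30 or more cells. Points give the summed share and lines run from the 25th to the 75th percentile of cells; neutrophil-like cells spread from 15.5% to 37.3% in suffix 3, far more widely than any other cluster shown.

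By the median, members were shifted against all genes tested in each suffix. A gene was counted as higher or lower at a ratio of 1.2-fold or more in CPM over the other suffixes, among 2501 genes with a mean of 50 CPM or more, which included all 76 members. In suffix 3, 28 members were higher, against 12.4% of all genes, and 5 were lower, against 36.3%. In suffix 4, 7 of the 76 members were higher, no more often than among all genes (10.9%). There 5 of the 76 were lower, less often than among all genes (28.1%). In suffix 1, 0 members were higher (36.8% of all genes) and 26 lower (13.1%), and in suffix 2, 1 was higher (25.5%) and 16 lower (13.3%). The median log2 ratio of members was −0.17, −0.08, 0.09 and 0.04 in suffixes 1 to 4, beside 0.16, 0.10, −0.16 and −0.11 for all genes tested.

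The members did not move as 1 block. To remove the change of the group as a whole, each member was next expressed as its share of all member UMIs. On that scale 33 of the 76 differed by 1.2-fold or more between some suffix and the others, and 41 differed that much between their highest and lowest suffix. The scale is defined for members only, so no share over all genes stands beside such counts, here or below. Rps21, a small-subunit protein, had the widest range, with 1903 CPM in suffix 3, against 689, 741 and 1192 CPM in suffixes 1, 2 and 4. Rps29, a zinc-binding small-subunit protein, had 5535 CPM in suffix 3, against 2461, 2493 and 3366 CPM. Rpl39, a very short protein at the exit tunnel, had 5130.5 CPM in suffix 3, against 2311, 2483 and 3267 CPM.

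Rpl38, a large-subunit protein needed in mice for translation of Hox mRNAs, had 2012 CPM in suffix 3, against 991, 1051 and 1219 CPM in suffixes 1, 2 and 4. Rpl30 had 2936 CPM in suffix 3, against 1497, 1638 and 2561 CPM. The ranges of these 5 members over the suffixes were 1.27, 1.02, 0.96, 0.83 and 0.78 on the log2 scale of the share of member UMIs, whereas the median member's range was 0.29. All 5 were highest in suffix 3. Going the other way, Rps2, a small-subunit protein near the mRNA entry channel, had 3266 CPM in suffix 3, against 4379.9, 4893 and 3767 CPM, and Rps6, the classical substrate of the S6 kinases, had 5292 CPM in suffix 3, against 7046, 6909 and 5944 CPM.

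Members high in suffix 3 had short coding sequences and members low there had long ones. The coding sequences of Rps21, Rps29, Rpl39, Rpl38 and Rpl30 have 249, 168, 153, 210 and 345 bases, while those of Rps2 and Rps6 have 879 and 747. Across the 76 members, coding length and the log2 ratio of suffix 3 had a Spearman correlation of −0.853 and a Pearson correlation of −0.794. The 9 members under 300 bases had a median log2 ratio of 0.70 (range 0.25 to 0.99), the 27 of 300 to under 450 bases 0.19, the 19 of 450 to under 600 bases −0.09, and the 21 longer ones −0.20 (range −0.53 to 0.01). With transcript length in place of coding length the Spearman correlation was −0.524. Rpl41, with 75 bases the shortest, stood away from the line at 4481 CPM in suffix 3, against 3345, 3958 and 3071 CPM in suffixes 1, 2 and 4.

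Over 2334 other genes with a coding length, the Spearman correlation in suffix 3 was 0.01. Their median log2 CPM ratios in the same 4 length classes, from short to long, were −0.01, −0.14, −0.23 and −0.18, so that the shortest of them were also the highest, over a narrower range than the members'. Points of these correlations are genes measured in the same libraries and are no independent replicates. The order by length was examined after the values by suffix had been seen.

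**Figure D2:**
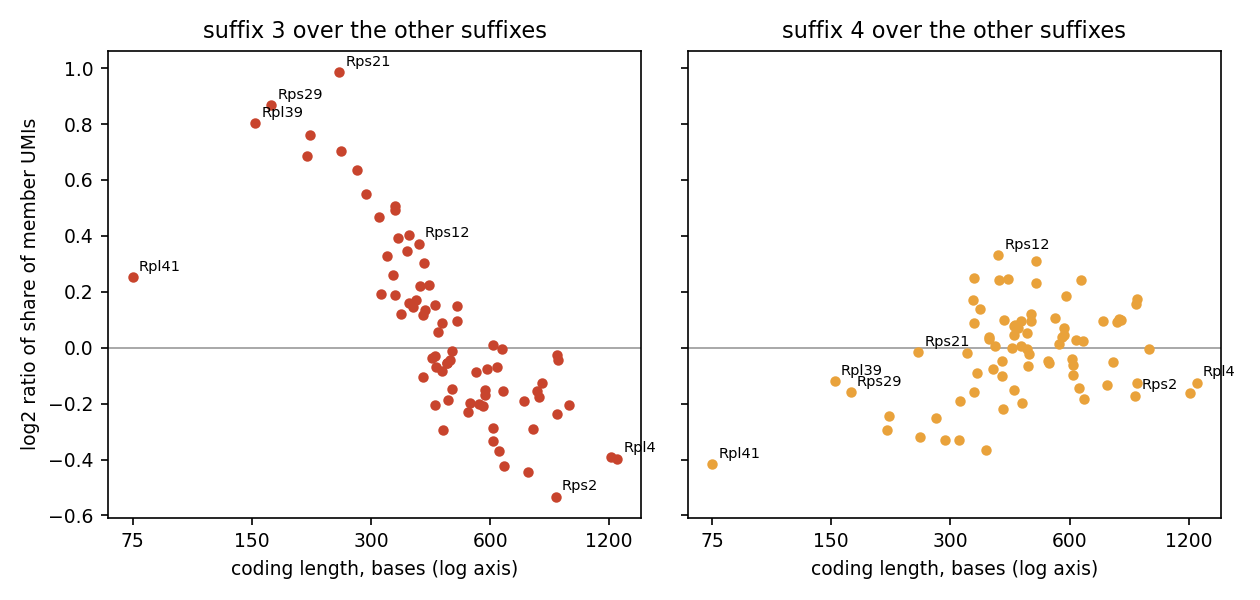
Log2 ratio of the share of member UMIs (y axis) against coding length in bases (x axis, log scale) for the 76 members, in suffix 3 over the other suffixes (left) and suffix 4 over the other suffixes (right). In suffix 3 the points fall with length from 0.99 for Rps21 to −0.53 for Rps2; in suffix 4 the shortest members are not raised and Rps12 is highest at 0.33.

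Suffixes 4 and 3 differed most plainly in this respect. Over the members, coding length and the log2 ratio of suffix 4 over suffix 3 had a Spearman correlation of 0.901, and it was 0.82 to 0.90 in each of the 10 clusters where both could be compared. Rps21 was lower in suffix 4 than in suffix 3 by log2 ratios of −0.71 to −0.45 over those clusters, Rps29 by −0.75 to −0.59 and Rpl39 by −0.67 to −0.52. Suffix 3 over suffix 1 had correlations of −0.85 to −0.79 in 6 clusters, and Rps21 was higher there by 1.15 to 1.26. Suffix 2 over suffix 1 showed the same direction with smaller differences, with a Spearman correlation of −0.670 over all cells and −0.64 to −0.30 inside 8 clusters, while 1 member was past 1.2-fold. For suffix 4 over suffix 1 the correlation was −0.436.

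Some members were higher in suffix 4 as well as in suffix 3. Rps12, Rps24 and Rpl23, with coding sequences of 396, 399 and 420 bases, are described here, and Rpl30, given above, was also higher in both. Rps12, a small-subunit protein, was higher in both suffix 3 (4369.8 CPM) and suffix 4 (4183 CPM) than in suffix 1 (2352 CPM) and suffix 2 (2677 CPM). Inside clusters, Rps12 was 0.66 to 0.76 higher on the log2 scale of the share of member UMIs in suffix 4 than in suffix 1, and −0.06 to 0.07 apart between suffixes 4 and 3. Its processed copy Rps12-ps3 was counted at 421 and 369.8 CPM in suffixes 3 and 4, against 201 and 222 CPM in suffixes 1 and 2. Rps24 and Rpl23 had the same order, with Rps24 at 6027 and 5919 CPM in suffixes 3 and 4, against 4031 and 4217 CPM in suffixes 1 and 2, and Rpl23 at 6160.2 and 6043 CPM, against 4066 and 4318 CPM. Rps12, Rps24 and Rpl23 were singled out after their values had been seen.

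Proteins that work together in the ribosome did not all move one way. Of the stalk, which recruits elongation factors, Rplp1 had 5649 CPM and Rplp2 5194 CPM in suffix 3, against 3618 and 2779 CPM in suffix 1. Rplp0, the long protein that anchors them, had 5429 CPM in suffix 3, against 5753 CPM in suffix 1. Rpl5 and Rpl11, which bind 5S rRNA and hold Mdm2 when ribosome assembly fails, were at 1996 and 4043 CPM in suffix 3, against 1729.8 and 4345 CPM in suffix 1. Rps19, the gene named above for Diamond-Blackfan anaemia, had 6426 CPM in suffix 3 and 6795 CPM in suffix 1.

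The TOP tract is the feature the family is known to share. Start regions are therefore shown for members at both ends of the length order and for Rps12, whose coding length lies between theirs. They come from RefSeq on GRCm38.p6 and run from 30 bases before to 20 bases from the annotated start; capitals mark an unbroken run of 6 or more C or T that overlaps the stretch from 5 bases before to 10 bases after the start.
Rps21 (chr2:180257349-180257398, plus strand): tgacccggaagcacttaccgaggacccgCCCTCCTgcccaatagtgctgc
Rpl39 (chrX:37085203-37085252, minus strand): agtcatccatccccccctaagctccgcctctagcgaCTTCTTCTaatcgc
Rpl38 (chr11:114668550-114668599, plus strand): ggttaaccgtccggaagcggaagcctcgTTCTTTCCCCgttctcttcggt
Rps12 (chr10:23787190-23787239, minus strand): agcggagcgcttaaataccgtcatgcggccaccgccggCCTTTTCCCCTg
Rps6 (chr4:86857348-86857397, minus strand): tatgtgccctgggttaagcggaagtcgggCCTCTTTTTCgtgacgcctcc
Rps2 (chr17:24720033-24720082, plus strand): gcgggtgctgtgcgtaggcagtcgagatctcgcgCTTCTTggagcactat
Rpl14 (chr9:120571487-120571536, plus strand): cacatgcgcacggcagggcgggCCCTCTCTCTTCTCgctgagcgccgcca

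Rps21 has another RefSeq start, which is not shown and where no such run was found. Of the 76 members, 56 matched a start by symbol, and such a run was found in 32 of them (57.1%) and in 27.3% of 26969 other genes. All members shown above have such a run, so they do not stand for the whole group. Among members high in suffix 3, Rps21, Rpl39 and Rpl38 had it, and Rpl37a, Rpl37 and Rps28 did not. Among members low there, Rps6, Rps2 and Rpl14 had it, and Rpl13 did not. Whether the run goes with the difference between suffixes was not tested. A match describes these letters only, and annotated starts can lie some bases from the true start.

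Each named class was set against all remaining cells within a suffix, wherever both sides had 30 cells. Granulocyte precursor-like cells (cluster 5, led by Nkg7, Ms4a3, Mpo and Elane) had 28.7% and 30.4% of their UMIs from members in suffixes 1 and 2, against 28.1% and 29.1% in the other cells. Eosinophil-like cells (cluster 0) were named from only 3 of 9 eosinophil markers, Prg2, Prg3 and Siglecf. The granulocyte precursor marker Cebpe was also among their leading genes, and unnamed cluster 10 had 3 eosinophil markers raised as well. Eosinophil-like cells had 30.4%, 31.0%, 37.2% and 35.4% in suffixes 1 to 4, against 28.1%, 29.2%, 31.9% and 30.8%. Macrophage-like cells (cluster 8, led by Wfdc17, Tgm3 and Hacd4) had 27.8%, 32.0% and 30.8% in suffixes 2 to 4, against 29.4%, 32.2% and 31.0%. Monocyte-like cells (cluster 11, led by Ifitm3, Apoe and S100a6) had 29.2% and 27.3% in suffixes 3 and 4, against 32.5% and 31.3%. Markers of macrophage-like and monocyte-like cells overlapped. Cluster 8 had 5 of 13 macrophage and 4 of 16 monocyte markers raised, and cluster 11 had 6 and 12. Lpl and Adgre1 were the macrophage markers among the leading genes of cluster 8. Neutrophil-like cells (cluster 6, led by Camp, Ngp and S100a9) had the lowest shares of the named classes in suffixes 3 and 4, at 27.8% and 26.1%, against 32.8% and 31.5% in the other cells, although these are averages over unlike cells, as described below.

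The median log2 ratio was thus 0.16 for eosinophil-like, 0.05 for granulocyte precursor-like, −0.01 for macrophage-like, −0.18 for monocyte-like and −0.25 for neutrophil-like cells. These medians come from different suffixes. Granulocyte precursor-like cells numbered 121, 183, 2 and 4 in suffixes 1 to 4, and neutrophil-like cells 6, 14, 193 and 136. The value of the first class therefore rests on suffixes 1 and 2, and that of the second on suffixes 3 and 4. Depth differed with the class, at a median of 4124.5 and 4127 UMIs in monocyte-like cells of suffixes 3 and 4, against 5586 and 5621 UMIs in the other cells, and its part in the result was not tested. When cells were chosen by summed markers in place of clusters, the ratio of eosinophil-like cells was 0.04 and that of macrophage-like cells −0.18. Monocyte-like and neutrophil-like cells stayed below 0 under every alternative run, at −0.24 to −0.11 and −0.58 to −0.11.

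Against the background of all genes, 33 members were lower in CPM in neutrophil-like cells and 0 higher, while 50.4% of all genes were lower and 7.72% higher, so that as a class these cells had members lower no more often than other genes. Transcripts of granule proteins, such as Camp and Elane, were summed together with S100a8 and S100a9, and this set is called granule transcripts below. It made up 13.8% and 12.7% of all UMIs in neutrophil-like cells of suffixes 3 and 4, against 1.13% and 1.26% in the other cells. In monocyte-like cells 17 members were lower and 0 higher (29.3% and 18.5% of all genes), and in macrophage-like cells 2 were lower and 1 higher (20.2% and 14.3%). No member was past 1.2-fold in granulocyte precursor-like cells (18% of all genes lower, 6.64% higher) or in eosinophil-like cells (8.32% lower, 2.96% higher).

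Neutrophil-like cells were far from uniform. Of the 45 kept cells with under 10% of UMIs from members, 43 were neutrophil-like. These 45 cells had a median of 4463 UMIs and 1.02% mitochondrial UMIs, beside 5781.5 UMIs and 2.717% over all kept cells. Between their 25th and 75th percentiles, neutrophil-like cells spread from 15.5% to 37.3% in suffix 3 and from 14.7% to 34.8% in suffix 4.

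The spread followed neutrophil maturation transcripts. Cells of a suffix were put in 4 bins of near-equal size by the share of their UMIs from S100a8 and S100a9, the subunits of calprotectin, which neutrophils make in quantity late in the marrow. From the lowest to the highest bin, members took 40.6%, 33.0%, 22.1% and 12.1% of UMIs in suffix 3 (48, 48, 48 and 49 cells) and 38.5%, 29.7%, 21.4% and 11.4% in suffix 4 (34 cells each). The share in the highest bin was lower than in the lowest in both suffixes, at log2 ratios of −1.74 and −1.75. The lowest bin stood above the cells outside the class, which had 32.8% and 31.5%, so the value of the class averages parts that lie on either side of the other cells. Summed granulocyte precursor markers in the lowest bin were at 23816 and 23584 CPM in suffixes 3 and 4, against 8479 and 9657 CPM in cells outside the class. Summed neutrophil markers there were at 3915 and 6564 CPM, against 1263 and 1387 CPM. In these suffixes, cells rich in granulocyte precursor markers thus carried the neutrophil-like name.

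Granule transcripts take up part of the UMIs and lower every other share, so their UMIs were also left out of the total. In the highest bins of suffixes 3 and 4 this set took 32.3% and 28.5% of UMIs. S100a8 and S100a9, which order the bins, accounted for 21.1% and 16.3%. The shares were then 41.6%, 35.3%, 27.0% and 17.9% in suffix 3 and 39.5%, 32.0%, 25.5% and 16.0% in suffix 4, from the lowest to the highest bin. Ordered by the secondary granule genes Ngp, Camp, Ltf and Lcn2 in place of calprotectin, the highest and lowest bins had 14.3% and 39.8% in suffix 3, and 14.4% and 38.6% in suffix 4. Median depth was 5781 UMIs in the highest and 7380.0 UMIs in the lowest bin of suffix 3, and 4609 and 6380.0 UMIs in suffix 4.

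Across the same bins Elane, which encodes neutrophil elastase of the primary granules, had 10456, 8132, 3512 and 1489.8 CPM in suffix 3, and Ltf, which encodes lactoferrin of the secondary granules, had 2.8, 0, 335 and 3536 CPM. In suffix 4 Elane had 9884, 5572, 2106 and 721 CPM and Ltf 0, 14.4, 106 and 2892 CPM. The lowest bin therefore held cells rich in primary granule transcripts and the highest cells rich in secondary ones. Summed transcripts of 20 G2 and M phase genes were at 470.1, 959.6, 1299.7 and 769.9 CPM in suffix 3 and 500.3, 1409.9, 1903 and 2309 CPM in suffix 4. Those of 20 S phase genes were at 783.5, 1593.5, 1677.7 and 1069.2 CPM in suffix 3 and 500.3, 1039.4, 1767.8 and 1633.4 CPM in suffix 4. The part of cell division in the member share was not tested.

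**Figure D3:**
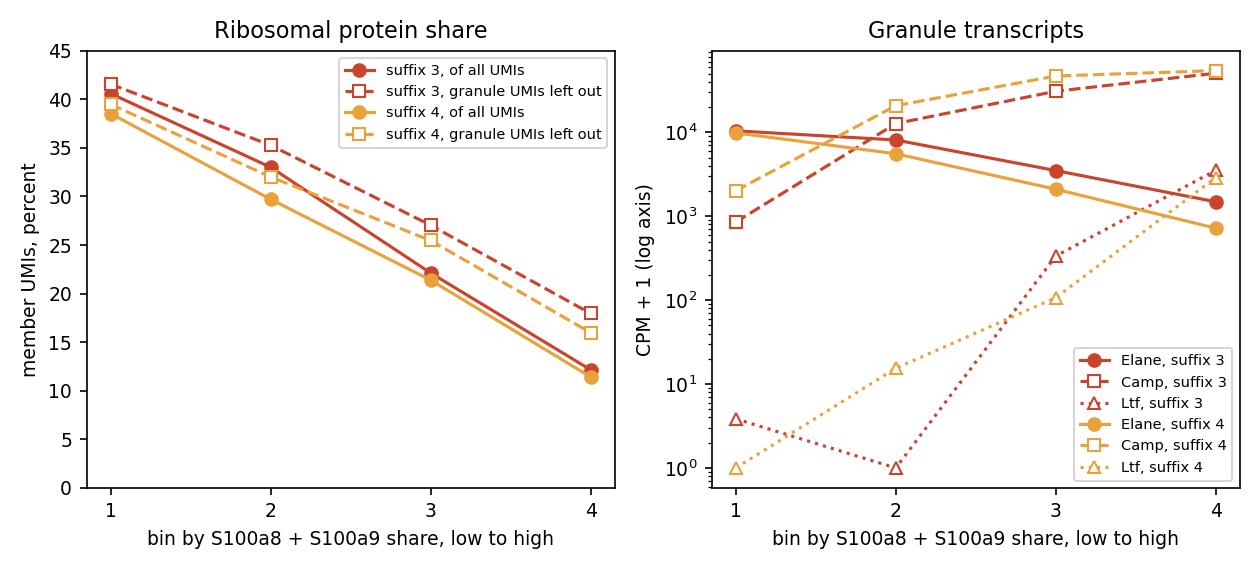
Left, share of UMIs from ribosomal protein genes (y axis, percent) in neutrophil-like cells of suffixes 3 and 4, by bin of the S100a8 and S100a9 share (x axis). Granule UMIs, which include those of S100a8 and S100a9, are counted in the total or left out. Right, CPM + 1 of Elane, Camp and Ltf on a log axis in the same bins; the member share falls with Elane while Camp and Ltf climb.

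All 76 members were lower in the highest than in the lowest bin by 1.2-fold or more in both suffixes, while 41.5% of all genes were lower and 11.1% higher. The median log2 CPM ratio was −1.71 for members (range −2.29 to −1.10) and −0.40 for all genes tested. Of 23 ribosome biogenesis genes tested, 19 were lower (median −1.30), and of 21 translation factors with TOP mRNAs 18 were lower (median −1.25), whereas 27 of 55 mitochondrial ribosome genes were lower (median −0.72). The bins were drawn after the wide spread had been seen, they cut a range and name no type, and 27 cells of each suffix lay within 10% of a boundary.

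Some members were lowered more than others, and those named next were chosen after their values had been seen. Rps28 was at 538 and 294 CPM in the highest bin of suffixes 3 and 4, against 2564 and 1474 CPM in the lowest. Its values in the highest bins rest on 151 and 51 UMIs. Rpl36a was at 823 and 664 CPM, against 3772 and 3084 CPM, and Rpl3, which lines the peptidyl transferase centre, at 1055 and 1027 CPM, against 4675 and 4694 CPM. Least lowered was Rpl27, at 367 and 387 CPM in the highest bin, against 946 and 696 CPM in the lowest, from 103 and 67 UMIs in the highest bins. As a share of member UMIs, 10 members were lower and 7 higher by 1.2-fold or more in both suffixes.

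Within classes, single members departed from the group. In monocyte-like cells 10 of the 76 were past 1.2-fold on the scale of the share of member UMIs in both usable suffixes. Rps2 departed furthest, with 2132 and 2168 CPM in monocyte-like cells of suffixes 3 and 4, against 3386 and 3926 CPM in the other cells. Rpl36a had 1788 and 1351 CPM, against 2605 and 2076 CPM. Rps20 had 2936 and 2739 CPM, against 4022 and 3931 CPM. Rps26, another Diamond-Blackfan anaemia gene in humans, had 1657 and 1241 CPM, against 2221 and 1811 CPM.

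Rps9, Rps27 and Rpl10 were among the members higher on that scale. Rpl10, which joins the large subunit last as it matures, had 7513 and 8248 CPM in monocyte-like cells of suffixes 3 and 4, against 6858 and 7473 CPM in the other cells. Rps9, a small-subunit protein that bears on decoding accuracy, had 4635 and 4801 CPM, against 4088 and 4399 CPM. Rps27 had 3620.4 and 2187 CPM, against 3319.8 and 1972 CPM. With monocyte-like cells chosen by summed markers, 2 members were past the ratio.

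In macrophage-like cells Rpl10 was the furthest above, with 7309, 8676 and 9229 CPM in suffixes 2 to 4, against 5671, 6651 and 7291 CPM in the other cells. Rps2 was again the furthest below, with 3451, 2264 and 2728 CPM, against 4921, 3419 and 3923 CPM. Rpl14 was past the ratio too, with 3624, 2998 and 3226 CPM, against 5064, 3922 and 4242 CPM. Rps27, Rpl39 and Rps24 on the high side and Rps26 and Rps27a on the low side missed it in at least 1 suffix, with median log2 ratios of 0.27, 0.18, 0.17, −0.23 and −0.18. With macrophage-like cells chosen by summed markers, 12 members were past the ratio.

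Neutrophil-like cells departed in other members. Rps27a, made as a fusion with ubiquitin, had 6458 and 6412 CPM in suffixes 3 and 4, against 6222 and 6348 CPM in the other cells, and was the highest on the scale of the share of member UMIs at 0.29. Rps29, Rpl37a and Rps24 (0.27, 0.20 and 0.19) followed on the high side and Rpl10, Rpl3 and Rpl27a (−0.26, −0.23 and −0.22) on the low side, none past 1.2-fold in both suffixes. Rpl10, with 4999 and 5475 CPM in neutrophil-like cells, against 7211 and 7759 CPM in the other cells, thus stood below the median member there and above it in monocyte-like cells.

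No member departed by 1.2-fold in the other classes. In granulocyte precursor-like cells Rpl13, Rps27a, Rplp0 and Rpl14 were highest (0.17, 0.15, 0.11 and 0.11 in log2) and Rpl7a, Rpl21 and Rpl10 among the lowest (−0.21, −0.15 and −0.14). In eosinophil-like cells Rps27a, Rpl9, Rpl15 and Rps7 were highest (0.15, 0.10, 0.10 and 0.10) and Rpl27, Rpl28, Rpl7a and Rpl41 lowest (−0.17, −0.16, −0.16 and −0.12).

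**Figure D4:**
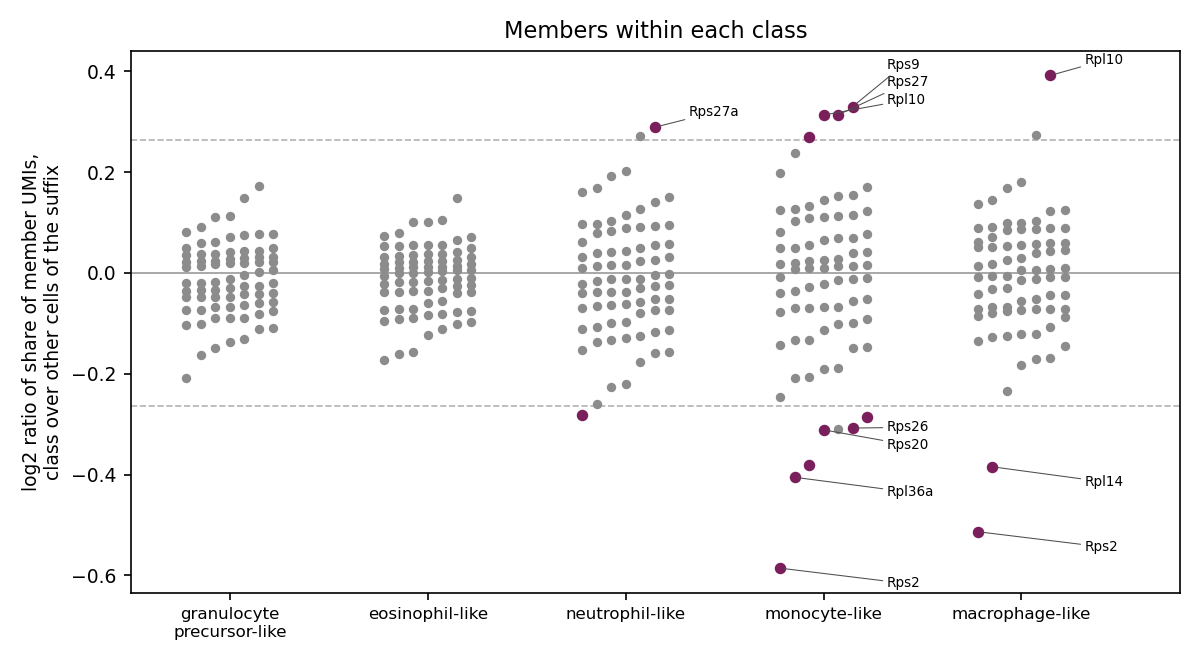
Log2 ratio of each member's share of member UMIs (y axis), in 5 classes of cells over the remaining cells of each suffix, as the median over suffixes; each point is 1 of 76 members. Dashed lines mark 1.2-fold, and coloured points, some of them named, are past it in each usable suffix, 10 of them in monocyte-like, 3 in macrophage-like and 2 in neutrophil-like cells.

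Rps2 and Rpl10 also had the largest spread between single cells relative to counting error, a ratio that comes closer to 1 the lower a gene's level is. For each member, the spread of its UMIs over cells was set against the spread that counting alone gives for the member UMIs of each cell, which is 1. The median member was at 1.253, Rps2 at 2.87, Rpl10 at 2.85, Rplp0 at 1.95 and Rpl13 at 1.85. Within cluster 1 alone the median was 1.186, with Rps2 at 2.51 and Rpl10 at 1.91. Thinned to 2000 UMIs per cell it was 1.101, with Rps2 at 1.65 and Rpl10 at 1.67.

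Ribosomal protein genes that the symbol rule does not take, and paralogs of members, were counted as well. Rps3a1, the mouse gene for Rps3a, had 5673, 5530.1, 5484 and 6073 CPM in suffixes 1 to 4. Fau, made as a fusion of Rps30 with a ubiquitin-like protein, had 4867 CPM in suffix 3, against 3275, 3592 and 4548 CPM in suffixes 1, 2 and 4. The paralog Rps27l, a p53 target, had 609.5 CPM in suffix 3, against 787, 832 and 556 CPM, and Rpl22l1, the paralog of Rpl22, had 1277, 1298, 1420 and 1191 CPM in suffixes 3, 1, 2 and 4. Rpl10l and Rpl39l, paralogs known from testis, were listed at 0 in all suffixes.

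Ribosome biogenesis and mitochondrial ribosome genes did not keep to the members' order over suffixes. Ribosome biogenesis genes, which process and assemble rRNA, were lower in suffix 3 in 19 and in suffix 4 in 18 of 23 tested, with 0 higher (median log2 CPM −0.72 and −0.48), and higher in suffix 1 in 20 and in suffix 2 in 19, with 0 lower (median 0.62 and 0.48). Mitochondrial ribosome genes went the same way, with 38 and 31 of 55 lower in suffixes 3 and 4 (median −0.35 and −0.28) and 37 and 28 higher in suffixes 1 and 2 (median 0.35 and 0.27). Of all genes tested, 36.3% and 28.1% were lower in suffixes 3 and 4, and 36.8% and 25.5% higher in suffixes 1 and 2. Nop56, a core protein of the rRNA methylation complex, had 108 and 117 CPM in suffixes 3 and 4, against 246 and 211 CPM in suffixes 1 and 2. The share of UMIs from ribosomal protein genes had the reverse order. Translation factors with TOP mRNAs were mixed, with 2 higher and 6 lower of 21 in suffix 3 (median −0.13), 4 higher and 1 lower in suffix 4 (median −0.02), and 3 higher and 3 lower in each of suffixes 1 and 2 (median 0.14 and 0.06). Tpt1, a translationally controlled protein, had 5601 and 6221 CPM in suffixes 3 and 4, against 2534 and 2542 CPM in suffixes 1 and 2. The elongation factor gene Eef1a1 had 9875 and 10964 CPM, against 8051 and 8219 CPM, and both thus had higher levels in suffixes 3 and 4, as many members did. S phase genes, whose level follows the fraction of dividing cells, were lower in suffix 3 in 14 and in suffix 4 in 12 of 15, and their part in these differences was not tested.

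The lists also split by class. Biogenesis genes were lower in 16 of 23 in monocyte-like, 18 in macrophage-like and 19 in neutrophil-like cells (median −0.81, −0.86 and −0.69), and the members' medians there were −0.17, −0.02 and −0.27. Of all genes tested, 29.3%, 20.2% and 50.4% were lower in monocyte-like, macrophage-like and neutrophil-like cells. Translation factors with TOP mRNAs, a group that includes elongation factors and Tpt1, were lower in 17 of 21 in neutrophil-like cells (median −0.41) and in 4 of 21 in macrophage-like cells (median −0.00), beside −0.35 and −0.03 over all genes tested. Of the 15 S phase genes tested, 15 were lower in macrophage-like and in monocyte-like cells. In neutrophil-like cells 9 of the 15 were lower, beside 50.4% of all genes.

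**Figure D5:**
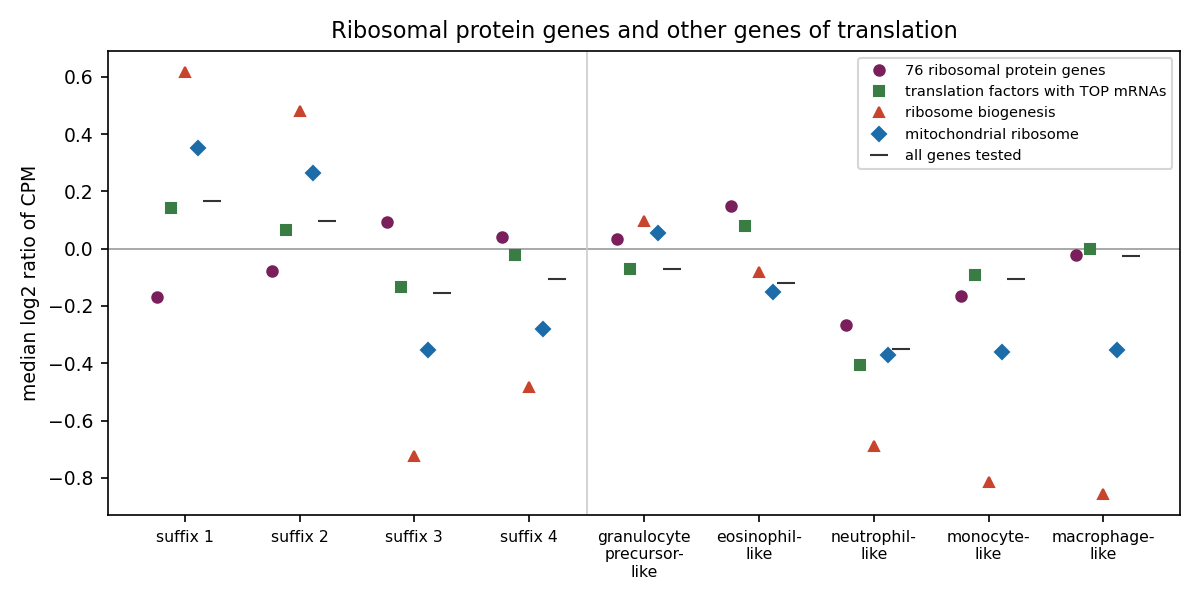
Median log2 ratio of CPM (y axis) for the 76 ribosomal protein genes and other lists, in each suffix over the others and each class over the other cells of its suffix (x axis); short dashes give the median of all genes tested. Ribosome biogenesis genes lie below the members in suffixes 3 and 4 (−0.72 and −0.48) and in the 3 classes from neutrophil-like to macrophage-like.

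Over 37 sums of cells by cluster and suffix, the genes whose log2 CPM was most like the log2 share of members were Gnb2l1 (Pearson 0.83), which encodes the ribosome-bound scaffold Rack1, Eef1b2 (0.83), an elongation factor subunit, Rpl23a-ps3 (0.76), Gm11808 (0.72) and Wdr89 (0.72). The sums share libraries and cells of few suffixes, so these correlations describe likeness in these data.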

How the data were processed

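Per the labels' protocols, 10x Chromium 3′ V2 libraries were made from sorted cells. Per the submitters' processing notes, Cell Ranger 1.3, the mm10 build and Seurat 2.3.4 were used, while Seurat 1.4 is named in the series' design. Which gene annotation was counted on was not given in the sources. The authors deposited 1 table of UMI counts per gene and barcode, whole numbers with no normalization, for 5664 barcodes, of which 5456 were kept (500 or more UMIs, no more than 10% of them mitochondrial). The members and gene lists were chosen with earlier results of these data known.

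Clustering used scanpy 1.11.5 in Python 3.11.15, with counts scaled to 10000 UMIs, 2000 variable genes without the members, 30 components, 15 neighbours and Leiden resolution 1. A cluster was named where at least 3 markers of a type were 2-fold or more above other cells at 20 CPM, where no type had more such markers, and where that type led among the 10 leading genes; this scoring was set after the data had been seen. Scrublet marked 27 cells (0.495%), too few to rely on the caller, and none were removed. Summed counts were compared as log2 of (value + 1) in CPM or per 1000000 member UMIs, in suffixes with 30 cells on both sides, and the median over suffixes is given. Intervals are exact binomial. TMM factors (edgeR 4.0.16) and size factors (DESeq2 1.42.0) served as alternative scalings. Named members are the 5 highest, the 5 lowest, the 5 with the widest range over suffixes, the 4 furthest on each side per class and the 5 with the largest spread between cells; others were chosen after their values were seen, and some members this rule takes are not reported here. Coding lengths and copies (blastn 2.17.0) came from GENCODE M21, with annotated transcripts in place of a genome. The counting rule and the spread were tested on simulated data.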

Additional observations from a re-analysis of the deposited data

How the results depend on the processing

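The order of the suffixes by share of UMIs was the same under each of the 8 alternatives run. The difference between suffix 3 and suffix 1 was 3.994 percentage points; it was 3.887 with no filter on cells, 5.435 outside the 50 other genes with the highest level, 3.628 as a median over cells, 4.159 with 3 ribosomal protein genes outside the symbol rule added and 3.01 in cells thinned to 2000 UMIs. For classes, in log2 ratio of the share, no filter on cells gave 0.0938 for granulocyte precursor-like, −0.2084 for neutrophil-like and −0.244 for monocyte-like cells. Leaving cell cycle, ribosomal and mitochondrial genes out of the variable genes gave 0.1685 for granulocyte precursor-like, 0.03606 for eosinophil-like, −0.5822 for neutrophil-like and −0.1123 for monocyte-like cells. Choosing cells by summed markers gave 0.02184, 0.03505, −0.4578 and −0.1776 for granulocyte precursor-like, eosinophil-like, neutrophil-like and macrophage-like cells. Neutrophil-like cells were also at −0.1232 outside the 50 other genes, −0.2838 as a median over cells, −0.2813 thinned, −0.4905 with members allowed among the variable genes and −0.1109 at Leiden resolution 0.5. With members allowed, macrophage-like cells reversed to 0.003273. In that setting 0 members were selected, so it does not show what using members in the clustering would do. The cause of these shifts was not tested.

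For members past the ratio, 1.5-fold left 7 of 33 between suffixes, 0 of 2 in neutrophil-like, 0 of 10 in monocyte-like and 0 of 3 in macrophage-like cells. CPM in place of the share of member UMIs gave 33 in neutrophil-like and 17 in monocyte-like cells. TMM factors gave 2 in granulocyte precursor-like and 2 in eosinophil-like cells, median of ratios factors 2 and 5, and leaving cell cycle, ribosomal and mitochondrial genes out gave 2 in eosinophil-like cells, beside 0 in the main result. Summed markers gave 0, 2 and 12 in neutrophil-like, monocyte-like and macrophage-like cells, Leiden resolution 0.5 gave 0 in neutrophil-like cells, and thinning gave 6 in monocyte-like cells. A spread between cells above 1.2 was seen in 45 members, and in 15 after thinning.

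Of list medians, translation factors reversed to 0.0269 in granulocyte precursor-like cells with TMM factors, and in macrophage-like cells they ranged from −0.01069 to 0.02664 leaving out each suffix in turn. Biogenesis in eosinophil-like cells ranged from −0.2271 to 0.06304 in the same way. Genes that host snoRNAs, of which 1 was tested, reversed to 0.02415 (TMM factors) in granulocyte precursor-like and to −0.2595 (no minimum level) in neutrophil-like cells, and ranged from −0.146 to 0.003808 and from −0.07352 to 0.1179 in these classes with each suffix left out in turn.

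Alternatives added after seeing the data were the 4 bins of neutrophil-like cells, whose log2 ratio of −1.747 was −1.258 without granule UMIs, −1.45 ordered by Ngp, Camp, Ltf and Lcn2 and −1.005 with both, and the correlation with length, −0.8533 for coding and −0.5242 for transcript length. No value could be had for macrophage-like cells with no filter on cells or without cell cycle, ribosomal and mitochondrial genes, nor for classes other than neutrophil-like at Leiden resolution 0.5, where no cluster took those names. The search for copies in a genome sequence was not run. No paired analysis was possible because suffixes are not tied to samples and no test was made. A share near 10% in a cell of 1189 UMIs, the fewest in any barcode, rests on little more than 100 UMIs, and counting error limits single cells more than sums.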
